A study of Mus musculus with 8 samples.

Results

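The genes described here are 45 sources of reactive oxygen and antioxidant enzymes, taken by name from the NADPH oxidase, superoxide dismutase, peroxidase, thioredoxin, glutathione and NRF2 pathways, among 36047 genes measured in muscle stem cells (MuSCs). All 45 were among the 17997 genes that passed the expression filter. MuSCs were sorted from male mice aged 5 to 6 months that had eaten either a vitamin A (VA)-free diet for 8 weeks (3 mice) or normal chow, the control diet (2 mice). All mice carried the tamoxifen-inducible Pax7CreERT2 driver and the Rosa26 nTnG reporter, and tamoxifen had turned on nuclear GFP in cells with Pax7 activity at the time of injection, so the sort rests on that driver. The RNA of a mouse was split into technical replicates A and B, and 8 libraries were read. Values of single libraries are given below in the order 1B, 2A, 3A, 3B for the VA-free mice and 1A, 1B, 2A, 2B for the control mice. The diets are compared as they were fed, and the VA content of the food and its other components cannot be told apart.

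Superoxide is made by NADPH oxidases at membranes and leaks from the respiratory chain in mitochondria. Superoxide dismutases turn it into hydrogen peroxide, which catalase, the glutathione peroxidases and the peroxiredoxins reduce to water. Peroxiredoxins are recharged by thioredoxin and thioredoxin reductase, and glutathione peroxidases, glutaredoxins and glutathione transferases draw on glutathione, which is made by glutamate-cysteine ligase and glutathione synthetase. The transcription factor NRF2, held in check by KEAP1, drives many of these genes through antioxidant response elements. In quiescent MuSCs a low level of reactive oxygen is a known feature of the resting state, and oxidants rise when the cells are activated.

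Levels are TMM-normalized CPM, estimated counts scaled to a common library size, for comparisons of 1 gene between samples. For comparisons between genes they are TPM, which also divide by transcript length. A log2 fold change is VA-free over control, with the standard error (SE) of edgeR's quasi-likelihood fit on the 5 mice, and a gene is called at a Benjamini-Hochberg adjusted p under 0.05 over all genes tested. The libraries held 45021285 to 88650428 estimated counts on the VA-free diet and 44831232 to 53029345 on the control diet. Libraries 3A and 3B of VA-free mouse 3 differed over the members by a root mean square of 0.131 on the log2 scale. Control 1A and 1B differed by 0.408, and control 2A and 2B, parts of the RNA of 1 mouse, by 0.794. Over all genes control 2A differed from the other control libraries by 0.785 to 0.924. Those differed from each other by 0.451 to 0.493. Control 2A therefore stands apart, and leaving it out gave 25 lower and 3 higher calls among the members. Whether 2A and 2B are rightly labelled as coming from 1 mouse was not tested, and the values of control mouse 2 rest on that label.

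On the VA-free diet most of these genes were at a lower level. Of the 45 members, 24 (53.3%) were called lower, where 22.5% of all genes tested were, and 3 (6.67%) were called higher, where 18.9% of all genes were. In either direction 41.4% of all genes tested were called. The 3 higher members were Txnrd1, the cytosolic thioredoxin reductase, Srxn1, the sulfiredoxin that repairs overoxidized peroxiredoxins, and Sod3, the secreted superoxide dismutase. The largest falls were in Mgst3, Nqo1, Cyba and Gpx1. The median log2 fold change was -0.74 over the members and 0.00 over all genes tested, and 36 of the 45 were below 0. For 36 members (80.0%) no mouse of one diet reached the range of the other, against 63.3% of all genes, and for 31 (68.9%) the 8 libraries did not overlap, against 41.3%.

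**Figure D1:**
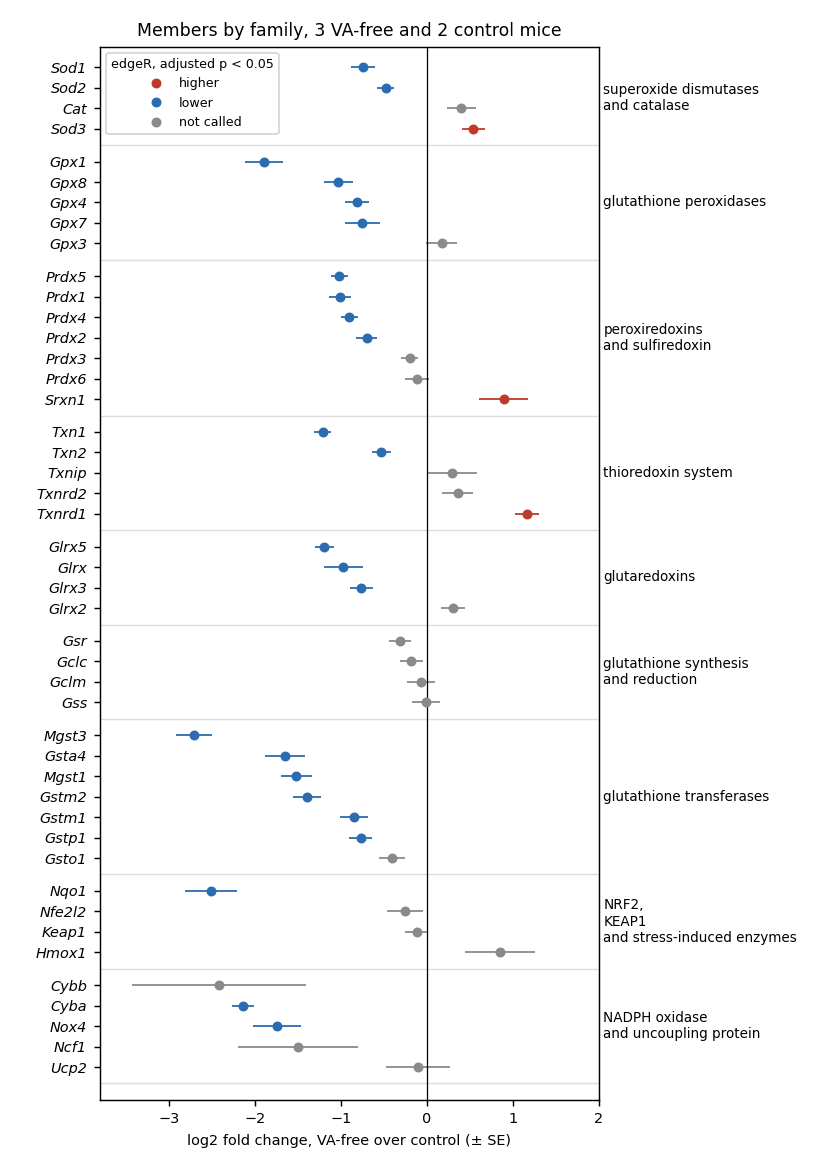
Log2 fold change of each of the 45 members, VA-free over control, grouped by enzyme family. Points are edgeR estimates over 3 VA-free and 2 control mice, bars are ± SE, and color marks the 3 members called higher, the 24 called lower and the 18 not called.

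Transcript length moved with these values. The members had a median effective length of 1163 bases, and all genes tested 2057. Across genes, which are not independent replicates, the Spearman correlation of log2 fold change with effective length was 0.52 over the 45 members and 0.37 over the 17997 genes tested. Under 1200 bases, 19 of 23 members were called lower and 0 higher, against 41.5% and 2.36% of all genes of that length. From 1200 to under 2000 bases, 5 of 12 members were called lower and 0 higher, against 25.7% and 9.17%. At 2000 bases or more, 0 of 10 members were called lower and 3 higher, against 12.4% and 31.2%. The median log2 fold change was -0.90 for members under 1200 bases and -0.66 for all genes of that length.

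The comparison was repeated after the trend of each mouse with length was removed, which moved the median of all genes by 0.18 on the log2 scale. Then 10 members were called lower and 8 higher, against 13.9% and 21.2% of all genes, and the median of the members was -0.10. The lower calls of Gpx1, Txn1, Glrx5, Gsta4, Gstm2, Mgst1, Mgst3, Nqo1, Cyba and Nox4 were kept, as were the higher calls of Txnrd1 and Srxn1. The lower calls of the other 14, namely Sod1, Sod2, Gpx4, Gpx7, Gpx8, Prdx1, Prdx2, Prdx4, Prdx5, Txn2, Glrx, Glrx3, Gstm1 and Gstp1, were lost, with values between -0.44 and 0.11, and so was the higher call of Sod3. Gpx3, Prdx6, Txnrd2, Glrx2, Gclm and Hmox1 were then called higher. On log2(TPM + 1) with limma, where the median of all genes was 0.35, 9 members were called higher and 19 lower, against 42.4% and 17.3% of all genes. Of all calls, 45.6% were higher in the comparison as reported, 60.4% without the length trend and 71.0% on TPM. What the length trend owes to RNA or library quality was not tested.

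**Figure D2:**
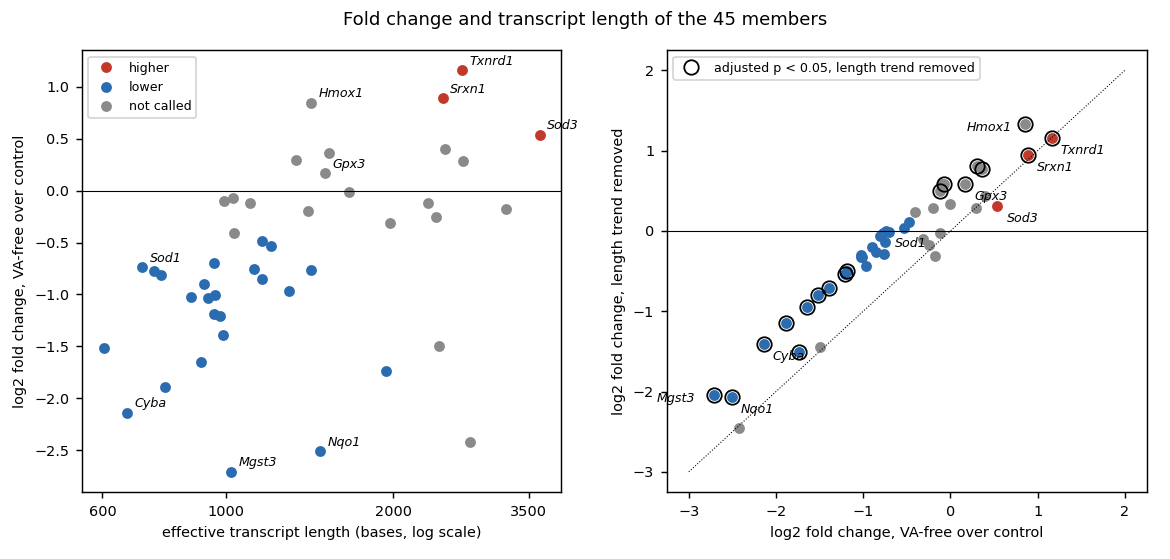
Left, log2 fold change of the 45 members against effective transcript length in bases (log scale), colored by call. Right, log2 fold change after removal of the length trend against that before it, with a dotted line of equality; black rings mark the 10 lower and 8 higher members called then, and Nqo1, Mgst3 and Nox4 lie farthest below 0 among them.

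The cell type markers also moved with the diet. The 12 MuSC markers, which include Pax7 and Myf5, summed to 6511.8 to 6974.2 CPM in the VA-free libraries and 1901.8 to 3905.4 CPM in the control libraries, and 11 of them were called higher. All 12 endothelial markers were called lower (305.4 to 394.0 CPM in the VA-free libraries and 1551.9 to 3800.1 CPM in the control libraries), as were 7 of the 8 tenocyte markers (40.2 to 68.7 CPM in the VA-free libraries and 712.4 to 1262.9 CPM in the control libraries) and 4 of the 7 erythroid markers that matched (28.8 to 243.1 CPM in the VA-free libraries and 1302.1 to 1909.1 CPM in the control libraries). Of the 16 macrophage and monocyte markers 7 were called lower and 0 higher (29.5 to 180.01 CPM in the VA-free libraries and 213.7 to 1033.6 CPM in the control libraries). Lower calls also held for 8 of 12 markers of fibro-adipogenic progenitors, against 1 higher, 6 of 11 of pericytes and smooth muscle, against 1 higher (1766.7 to 2046.4 CPM in the VA-free libraries and 2781.3 to 3409.3 CPM in the control libraries), 8 of 10 of Schwann cells (857.8 to 947.4 CPM in the VA-free libraries and 1367.3 to 1697.5 CPM in the control libraries) and 8 of 14 of myofibers (431.7 to 544.9 CPM in the VA-free libraries and 615.2 to 814.1 CPM in the control libraries). Of the 10 neutrophil markers 3 were tested and 0 called, at 1.85 to 2.92 CPM in the VA-free libraries and 1.59 to 8.76 CPM in the control libraries. The summed level of the fibro-adipogenic list was set by Col3a1, its higher member, a point examined after the values were seen: the list summed to 12112.0 to 13280.0 CPM in the VA-free libraries and 4820.5 to 10292.0 CPM in the control libraries, and without Col3a1 to 1634.7 to 1758.0 CPM in the VA-free libraries and 3795.8 to 4307.2 CPM in the control libraries, with a median log2 fold change of -3.30 over the 12. No marker was at 0 in all libraries. Of 14 genes of the dissociation response 2 were called higher and 3 lower. In such bulk samples fewer cells of a type and less RNA per cell cannot be told apart, and the part of these cells in the values below was not tested.

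**Figure D3:**
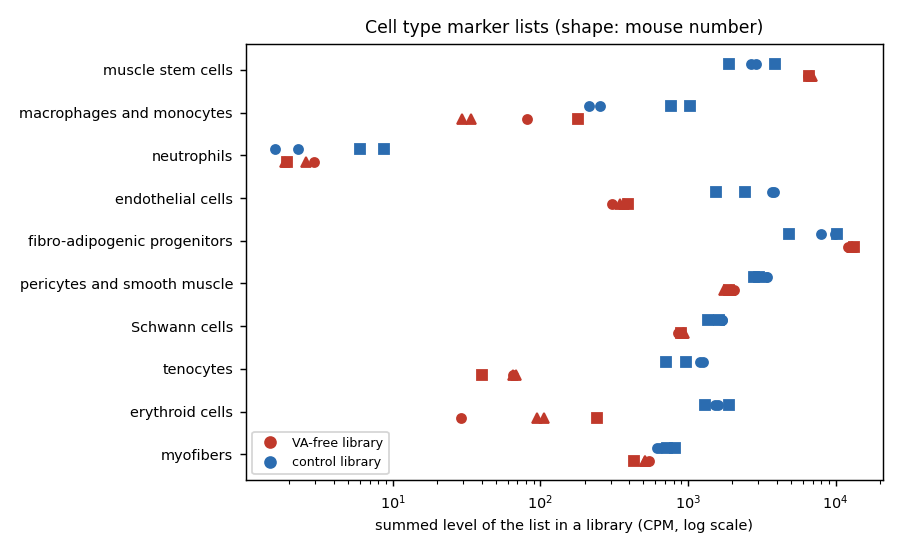
Summed level of each cell type marker list in each library (CPM, log scale); shape marks the mouse number and color the diet. The 4 VA-free libraries sit above all control libraries for MuSCs and for the fibro-adipogenic list, whose sum is mostly Col3a1 while 8 of its 12 markers were called lower, and below them for macrophages, endothelial cells, pericytes, Schwann cells, tenocytes, erythroid cells and myofibers.

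Among the sources of superoxide, Cyba and Nox4 fell. Cyba encodes p22phox, the membrane subunit that stabilizes the catalytic NADPH oxidases (chr8:122424776-122432930, minus strand, GRCm38). It was at 16.9, 21.5, 18.5 and 17.6 CPM on the VA-free diet and 92.6, 66.4, 121.3 and 56.8 CPM on the control diet. Every control library was above every VA-free library by a wide margin, and the log2 fold change was -2.14 ± 0.13 (SE, edgeR's adjusted p = 0.000226). Nox4, a catalytic subunit that makes hydrogen peroxide without the cytosolic activators, was at 1.6001, 1.397, 1.06 and 1.49 CPM on the VA-free diet and 2.44, 6.87, 7.09 and 3.47 CPM on the control diet. The libraries of the diets did not overlap at this low level, and the log2 fold change was -1.74 ± 0.28 (SE, edgeR's adjusted p = 0.00288). Only part of the Nox4 signal came from coding transcripts: the noncoding transcript Nox4-204, picked out after its values were seen, held 51.0% to 72.3% of the gene's TPM in the VA-free libraries and 25.5% to 40.4% in the control libraries. Nox4-208, annotated for nonsense-mediated decay, held 0% to 49.0% in the VA-free libraries and 5.97% to 37.25% in the control libraries. The coding transcripts Nox4-201, Nox4-202 and Nox4-203 were at 0 TPM in VA-free 1B. In control 1A they were at 0, 1.33e-08 and 0.159 TPM.

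The phagocyte oxidase subunits were at low levels on both diets. Cybb, the catalytic subunit of phagocytes, was at 1.07, 3.89, 0.264 and 0.342 CPM on the VA-free diet and 1.37, 5.03, 19.3 and 12.9 CPM on the control diet. The libraries overlapped, because VA-free 2A lay above control 1A, and the log2 fold change of -2.42 ± 1.01 (SE, edgeR's adjusted p = 0.097) did not pass the test. Over the 21 alternatives it ranged from -3.73 to -0.87, with adjusted p from 0.00508 to 0.587. The largest fall came without VA-free mouse 2 (-3.73 with adjusted p = 0.0258) and the smallest without control mouse 2 (-0.87 with adjusted p = 0.587), which was at 15.4 CPM where control mouse 1 was at 3.19 CPM. The macrophage and monocyte markers, summed, were at 80.6, 180.01, 34.1 and 29.5 CPM on the VA-free diet and 253.7, 213.7, 1033.6 and 769.3 CPM on the control diet. VA-free 2A was the highest of the VA-free libraries and control 2A the highest of all libraries for these markers and for Cybb alike. Ncf1, which encodes the cytosolic activator p47phox, was at 0.448, 0.752, 0.044 and 0.221 CPM on the VA-free diet and 0.278, 1.77, 0.312 and 2.69 CPM on the control diet, with a log2 fold change of -1.50 ± 0.70 (SE, edgeR's adjusted p = 0.132) that did not pass the test either.

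Ucp2, an uncoupling protein of the inner mitochondrial membrane, differed more within the diets than between them. It was at 56.5, 36.4, 96.995 and 99.3 CPM on the VA-free diet and 64.9, 71.2, 35.95 and 102.3 CPM on the control diet, and the log2 fold change was -0.10 ± 0.37 (SE, edgeR's adjusted p = 0.849). Its lowest values were in VA-free 2A and control 2A. Without VA-free mouse 2 its direction turned, to 0.18 with adjusted p = 0.64. Over the 5 genes of the oxidase and uncoupling group, 2 were called lower and 0 higher, the same count as with the length trend removed, and the median log2 fold change was -1.74.

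**Figure D4:**
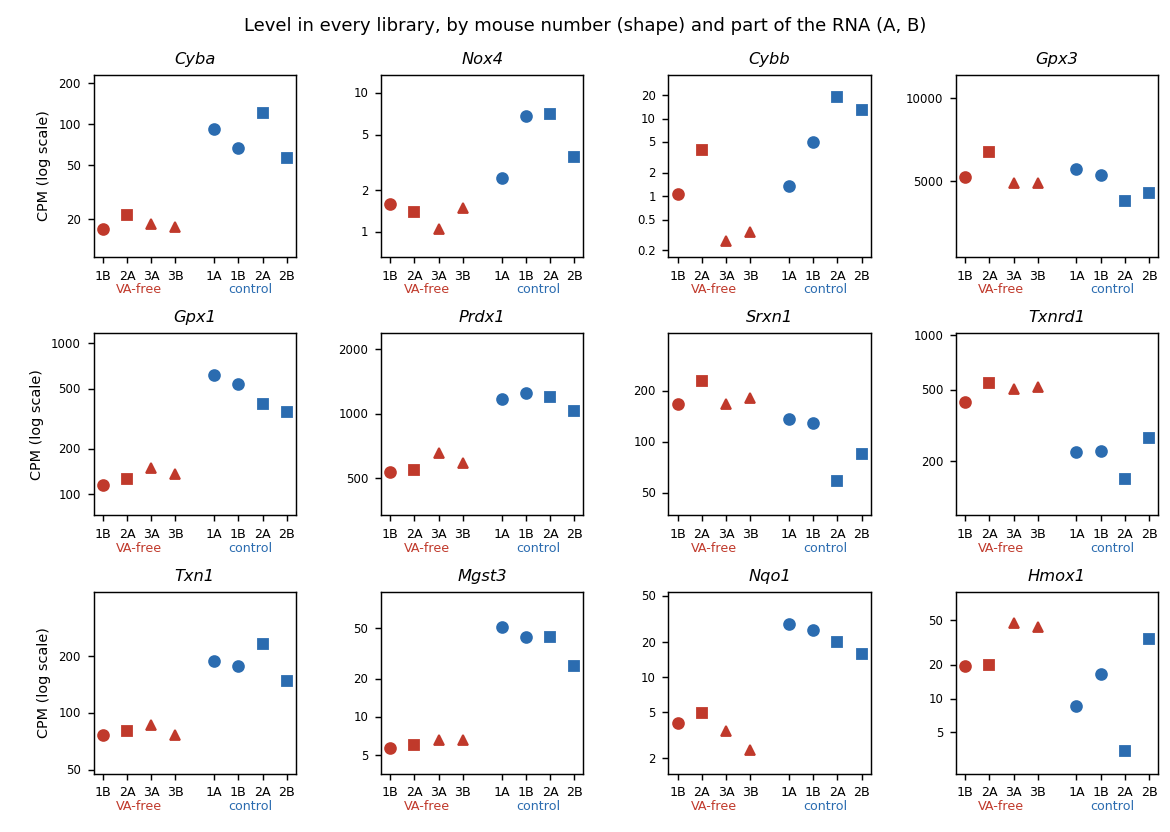
Level of 12 members in each library (CPM, log scale), with shape for the mouse number and color for the diet. The 8 libraries separate by diet for Cyba, Nox4, Gpx1, Prdx1, Srxn1, Txnrd1, Txn1, Mgst3 and Nqo1 and overlap for Cybb, Gpx3 and Hmox1.

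Of the superoxide dismutases, Sod1 and Sod2 were called lower and the secreted Sod3 higher, and these calls were lost without the length trend. Sod1, the cytosolic copper and zinc enzyme, was at 39.9, 34.95, 39.2 and 32.96 CPM on the VA-free diet and 68.8, 62.98, 66.4 and 51.4 CPM on the control diet. Its highest VA-free library stayed below its lowest control library, and the log2 fold change was -0.74 ± 0.14 (SE, edgeR's adjusted p = 0.00517). Sod2, the manganese enzyme of the mitochondrial matrix and the most abundant of the family by TPM on the control diet, where Sod3 was slightly above it on the VA-free diet, was at 84.02, 89.2, 80.9 and 79.8 CPM on the VA-free diet and 120.3, 112.8, 133.4 and 110.5 CPM on the control diet. It fell by a smaller amount, with a log2 fold change of -0.48 ± 0.10 (SE, edgeR's adjusted p = 0.0104). Without the length trend the values were 0.00 for Sod1 and 0.11 for Sod2, and neither was called.

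Sod3, the enzyme secreted into the extracellular matrix, was at 223.3, 271.1, 262.4 and 274.0 CPM on the VA-free diet and 168.3, 165.6, 181.3 and 195.1 CPM on the control diet. The libraries did not overlap, with control 2B nearest to the VA-free libraries, and the log2 fold change was 0.54 ± 0.13 (SE, edgeR's adjusted p = 0.0146). The call was lost without VA-free mouse 2 (0.50 with adjusted p = 0.0559), VA-free mouse 3 (0.49 with adjusted p = 0.0582) or library control 2B (0.52 with adjusted p = 0.079). Removal of the length trend also lost it (0.31 with adjusted p = 0.131). Cat, the peroxisomal catalase, had a log2 fold change of 0.40 ± 0.17 (SE, edgeR's adjusted p = 0.0975). Its VA-free libraries, from 90.7 to 131 CPM, lay above its control libraries, from 81.9 to 88.8 CPM, without passing the test, and over the 21 alternatives it ranged from 0.26 to 0.80, with adjusted p from 0.00342 to 0.357. It passed without VA-free mouse 2 (0.53 with adjusted p = 0.038) and was smallest without VA-free mouse 3 (0.26 with adjusted p = 0.263).

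The glutathione peroxidases fell, apart from Gpx3, although without the length trend 1 of them, Gpx1, was called lower and Gpx3 was called higher, at 0.59. Gpx1, the ubiquitous selenoenzyme of cytosol and mitochondria (chr9:108338903-108340343, plus strand), was at 115.7, 126.9, 149.6 and 135.8 CPM on the VA-free diet and 614.1, 541.2, 397.4 and 352.9 CPM on the control diet. The control values lay well above the VA-free values in every library, and the log2 fold change was -1.89 ± 0.22 (SE, edgeR's adjusted p = 0.000847). In the order of TPM among the 45 members Gpx1 stood at rank 4 on the control diet and at rank 8 on the VA-free diet. Gpx4, which reduces lipid peroxides within membranes, was at 159.8, 183.5, 170.6 and 165.0 CPM on the VA-free diet and 340.8, 314.0, 324.5 and 230.6 CPM on the control diet, with a log2 fold change of -0.81 ± 0.14 (SE, edgeR's adjusted p = 0.00391). A share of 38.9% of its 31-base words was found in transcripts of other genes, mostly the pseudogene Gpx4-ps2, so its count is uncertain. Gpx8, an enzyme of the endoplasmic reticulum membrane, was at 35.1, 41.1, 38.8 and 41.96 CPM on the VA-free diet and 69.2, 56.3, 136.0 and 64.8 CPM on the control diet. Control 2A was far above the other control libraries, and the log2 fold change was -1.03 ± 0.17 (SE, edgeR's adjusted p = 0.00367).

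Gpx7, the related enzyme of the endoplasmic reticulum lumen, had a log2 fold change of -0.75 ± 0.20 (SE, edgeR's adjusted p = 0.0214). This call was lost without VA-free mouse 1 (-0.79 with adjusted p = 0.0572), VA-free mouse 2 (-0.63 with adjusted p = 0.0591), control mouse 2 (-0.48 with adjusted p = 0.0938), library control 1A (-0.69 with adjusted p = 0.0603) or library control 2B (-1.01 with adjusted p = 0.0627). Gpx3, the secreted selenoenzyme, was the most abundant of all 45 members on both diets, at 6677.5 TPM on the VA-free diet and 4341.8 TPM on the control diet. Its libraries overlapped, at 5170.2, 6405.4, 4922.9 and 4939.3 CPM on the VA-free diet and 5556.7, 5294.9, 4265.3 and 4548.7 CPM on the control diet. The log2 fold change was 0.17 ± 0.18 (SE, edgeR's adjusted p = 0.489), and it was -0.02 with adjusted p = 0.94 without control mouse 2. Gstm1, second in the order on both diets, was at 1564.9 TPM on the VA-free diet and 2047.7 TPM on the control diet, and Prdx1, next after it on both, at 1095.7 TPM on the VA-free diet and 1594.5 TPM on the control diet.

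Of the 6 peroxiredoxins, 4 were called lower. Prdx1, the abundant cytosolic peroxiredoxin, was at 535.5, 545.9, 654.6 and 591.0 CPM on the VA-free diet and 1168.0, 1252.1, 1194.8 and 1025.8 CPM on the control diet, with no overlap between libraries and a log2 fold change of -1.01 ± 0.13 (SE, edgeR's adjusted p = 0.00134). Prdx5, found in mitochondria, peroxisomes and cytosol, was at 59.05, 57.2, 62.9 and 59.97 CPM on the VA-free diet and 123.4, 104.6, 166.2 and 96.1 CPM on the control diet. The VA-free libraries spanned a narrow range and all control libraries were above it, with a log2 fold change of -1.02 ± 0.10 (SE, edgeR's adjusted p = 0.000556). Prdx4, the peroxiredoxin of the endoplasmic reticulum, was at 60.2, 59.8, 61.6 and 59.2 CPM on the VA-free diet and 118.8, 98.7, 129.8 and 106.7 CPM on the control diet, with a log2 fold change of -0.90 ± 0.10 (SE, edgeR's adjusted p = 0.000711). Prdx2, also cytosolic, was called lower too, at -0.70.

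The mitochondrial Prdx3 had a log2 fold change of -0.20 ± 0.10 (SE, edgeR's adjusted p = 0.176) and Prdx6, which uses glutathione rather than thioredoxin, one of -0.12 ± 0.14 (SE, edgeR's adjusted p = 0.551), and neither passed the test. Prdx6 turned to 0.08 with adjusted p = 0.618 without control mouse 1. With the length trend removed, 0 of the 4 lower calls among peroxiredoxins were left and Prdx6 was called higher, at 0.50. Between 15.2% and 16.9% of the 31-base words of Prdx1, Prdx2 and Prdx5 also occur in other genes, which limits how well those counts can be assigned.

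Srxn1, described in full after its values were seen, rose where 4 peroxiredoxins were called lower. Without the length trend 0 of those 4 lower calls were left, while Srxn1 was still called higher, at 0.95. It was at 166.5, 229.1, 165.7 and 181.6 CPM on the VA-free diet and 136.8, 128.4, 58.7 and 84.6 CPM on the control diet. The 2 libraries of control mouse 2 were the lowest, those of control mouse 1 came closest to the VA-free libraries, and the log2 fold change was 0.89 ± 0.29 (SE, edgeR's adjusted p = 0.0465). The call was lost without any of the VA-free mice, namely mouse 1 (0.97 with adjusted p = 0.0794), mouse 2 (0.74 with adjusted p = 0.115) and mouse 3 (0.94 with adjusted p = 0.078). It was also lost without control mouse 2 (0.48 with adjusted p = 0.11), library VA-free 3B (0.85 with adjusted p = 0.0516) or library control 2B (0.95 with adjusted p = 0.126), and without control mouse 1 the value was 1.45 with adjusted p = 0.00335.

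In the thioredoxin system the carrier fell and its reductase rose. Txn1, the cytosolic thioredoxin that passes electrons to peroxiredoxins, was at 76.03, 80.1, 86.7 and 76.7 CPM on the VA-free diet and 189.6, 177.9, 232.0 and 147.6 CPM on the control diet. No control library came near the VA-free range, and the log2 fold change was -1.21 ± 0.10 (SE, edgeR's adjusted p = 0.000368). Txnrd1, the cytosolic selenoenzyme that reduces thioredoxin with NADPH (chr10:82833951-82897712, plus strand), was at 425.6, 541.2, 504.8 and 518.9 CPM on the VA-free diet and 225.7, 227.0, 160.04 and 269.9 CPM on the control diet. Its libraries did not overlap either, in the opposite direction, and the log2 fold change was 1.16 ± 0.14 (SE, edgeR's adjusted p = 0.00108). Per length, Txn1 was at 148.4 TPM on the VA-free diet and 251.8 TPM on the control diet, and Txnrd1 at 342.6 TPM on the VA-free diet and 111.7 TPM on the control diet, so the order of the reductase and its substrate by TPM was reversed between the diets. Both calls held in each of the 21 alternatives. The intron-retaining transcript Txnrd1-202, picked out after its values were seen, held 5.35% to 7.60% of the gene's TPM in the VA-free libraries and 0.581% to 2.82% in the control libraries, while the coding transcripts Txnrd1-201 and Txnrd1-208 held the largest shares on both diets.

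In mitochondria the thioredoxin was called lower and its reductase was not called. Txn2, mitochondrial thioredoxin, was at 140.9, 148.2, 134.4 and 131.0 CPM on the VA-free diet and 199.0, 198.9, 260.6 and 169.6 CPM on the control diet, with control 2A the highest and a log2 fold change of -0.53 ± 0.11 (SE, edgeR's adjusted p = 0.00737). Its reductase Txnrd2 had a log2 fold change of 0.36 ± 0.18 (SE, edgeR's adjusted p = 0.153), with control 1B far below the other libraries at 4.78 CPM. Without the length trend Txn2 was at 0.04 and not called, and Txnrd2 was called higher, at 0.77. Txnip, which binds and inhibits thioredoxin, spanned 68.0 to 148 CPM on the VA-free diet and 50.5 to 117 CPM on the control diet, with a log2 fold change of 0.29 ± 0.29 (SE, edgeR's adjusted p = 0.464). Without VA-free mouse 3 it was -0.01 with adjusted p = 0.971.

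Of the glutaredoxins, which use glutathione to reduce protein disulfides or carry iron-sulfur clusters, 3 of 4 were called lower, and without the length trend 1, Glrx5, was, while Glrx2 was called higher at 0.81. Glrx5, the mitochondrial iron-sulfur cluster carrier, was at 46.5, 46.04, 43.3 and 44.5 CPM on the VA-free diet and 94.3, 98.4, 169.3 and 64.7 CPM on the control diet. The VA-free libraries agreed closely and all control libraries were above them, with a log2 fold change of -1.19 ± 0.11 (SE, edgeR's adjusted p = 0.000419). Glrx, the cytosolic dithiol enzyme, was at 7.71, 5.26, 6.32 and 5.47 CPM on the VA-free diet and 14.4, 10.7, 10.3 and 13.9 CPM on the control diet, with a log2 fold change of -0.97 ± 0.23 (SE, edgeR's adjusted p = 0.0137). Its call was lost without VA-free mouse 3 (-0.92 with adjusted p = 0.0527) or library control 2B (-0.90 with adjusted p = 0.0626). Glrx3, a cytosolic monothiol carrier and the most abundant of the family by TPM, was at 117.3, 127.9, 119.9 and 113.0 CPM on the VA-free diet and 177.5, 183.2, 297.0 and 179.7 CPM on the control diet. Control 2A was far above the others, and the log2 fold change was -0.76 ± 0.13 (SE, edgeR's adjusted p = 0.00333).

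Glrx2, which reduces disulfides in mitochondria, had a log2 fold change of 0.30 ± 0.14 (SE, edgeR's adjusted p = 0.119), with no overlap between libraries, at 25.5 to 31.6 CPM on the VA-free diet and 23.7 to 24.5 CPM on the control diet. Its direction depends on which transcripts are counted, a point examined after the values were seen. Glrx2-202, a coding transcript of 580 bases, was at 14.4, 14.9, 9.43 and 9.02 TPM on the VA-free diet and 27.1, 14.95, 28.9 and 21.1 TPM on the control diet. Glrx2-210, a coding transcript of 3337 bases, was at 7.66, 5.88, 6.26 and 8.24 TPM on the VA-free diet and 1.86, 3.05, 2.34 and 3.52 TPM on the control diet. The short transcript thus had lower shares and the long one higher shares on the VA-free diet, 33.1% to 48.7% against 51.4% to 76.0% and 19.2% to 30.2% against 5.17% to 11.2%. With an offset for the mean effective transcript length of each mouse the log2 fold change of the gene was -0.61 with adjusted p = 0.0128.

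None of the 4 genes of glutathione synthesis and reduction was called over the 5 mice with edgeR. Without the length trend Gclm was called higher, at 0.59, on log2(TPM + 1) with limma Gclm (0.50 with adjusted p = 0.0177) and Gss (0.44 with adjusted p = 0.0418) were, and with DESeq2 on the 8 libraries Gsr was called lower (-0.32 with adjusted p = 0.0133). Gclm, the modifier subunit of glutamate-cysteine ligase and the most abundant of the group by TPM, was at 41.5, 43.98, 49.5 and 52.4 CPM on the VA-free diet and 50.02, 56.6, 41.9 and 45.2 CPM on the control diet. The ranges overlapped and the log2 fold change was -0.07 ± 0.16 (SE, edgeR's adjusted p = 0.746). Gclc, the catalytic subunit, had a log2 fold change of -0.18 ± 0.13 (SE, edgeR's adjusted p = 0.306), Gss, glutathione synthetase, one of -0.01 ± 0.16 (SE, edgeR's adjusted p = 0.982), and Gsr, the reductase that restores glutathione with NADPH, one of -0.31 ± 0.13 (SE, edgeR's adjusted p = 0.0884). For Gsr the VA-free libraries, from 30.0 to 33.7 CPM, all lay below the control libraries, from 37.2 to 41.8 CPM, and without control mouse 2 it passed the test (-0.43 with adjusted p = 0.0312). Without control mouse 1, Gclm turned to 0.13 with adjusted p = 0.546 and Gss to 0.19 with adjusted p = 0.352.

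The glutathione transferases fell most consistently: all 7 were below 0 and 6 were called lower, although without the length trend Gsto1 was at 0.24 and 4 were called lower. Mgst3, a microsomal transferase with peroxidase activity toward lipid hydroperoxides (chr1:167371966-167393841, minus strand), had the largest fall of all 45 members. It was at 5.72, 6.02, 6.63 and 6.56 CPM on the VA-free diet and 50.8, 42.4, 42.5 and 25.2 CPM on the control diet. The lowest control library was several times the highest VA-free library, and the log2 fold change was -2.71 ± 0.21 (SE, edgeR's adjusted p = 0.000288). Mgst1, the microsomal transferase of the endoplasmic reticulum and outer mitochondrial membrane, was at 27.99, 40.3, 42.7 and 38.3 CPM on the VA-free diet and 102.4, 118.0, 140.2 and 64.8 CPM on the control diet, with a log2 fold change of -1.52 ± 0.18 (SE, edgeR's adjusted p = 0.000918). Gsta4, which conjugates the lipid peroxidation product hydroxynonenal, was at 5.56, 5.93, 4.405 and 4.79 CPM on the VA-free diet and 17.3, 22.1, 15.8 and 13.1 CPM on the control diet, with a log2 fold change of -1.65 ± 0.23 (SE, edgeR's adjusted p = 0.00166). These 3 genes kept their calls in each of the 21 alternatives.

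Gstm1, a cytosolic mu-class transferase and the most abundant of the family, was at 817.0, 1183.3, 981.1 and 967.7 CPM on the VA-free diet and 1852.2, 1635.8, 2429.0 and 1373.5 CPM on the control diet. All control libraries were above all VA-free libraries, with a log2 fold change of -0.85 ± 0.16 (SE, edgeR's adjusted p = 0.00618). Gstm2 had one of -1.39 and Gstp1, the pi-class enzyme, one of -0.77, both called lower. The omega-class Gsto1 had one of -0.41 ± 0.15 (SE, edgeR's adjusted p = 0.0695), and passed the test without control mouse 2 (-0.62 with adjusted p = 0.0113) or library control 2A (-0.48 with adjusted p = 0.0202). Of their 31-base words, Gstp1 shared 38.5%, Gstm1 28.8% and Gstm2 12.2% with other genes, among them Gstp2, Gstm3 and pseudogenes. These counts are therefore uncertain, while Gsta4, Mgst1 and Gsto1 shared none.

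The regulators of the antioxidant response were not called. Nfe2l2, which encodes NRF2, was at 110.7, 139.8, 185.1 and 185.2 CPM on the VA-free diet and 184.2, 179.6, 160.1 and 171.5 CPM on the control diet. VA-free mouse 3 lay at the level of the highest control library and VA-free mice 1 and 2 below all of them, and the log2 fold change was -0.25 ± 0.21 (SE, edgeR's adjusted p = 0.4). Keap1, its inhibitor, had a log2 fold change of -0.12 ± 0.13 (SE, edgeR's adjusted p = 0.501). Nqo1, a quinone reductase and a classic NRF2 target (chr8:107388225-107403206, minus strand), fell: it was at 4.01, 4.91, 3.46 and 2.35 CPM on the VA-free diet and 28.5, 25.2, 20.1 and 15.9 CPM on the control diet. The log2 fold change was -2.51 ± 0.30 (SE, edgeR's adjusted p = 0.000928), and the call held in each of the 21 alternatives. Hmox1, heme oxygenase, also a NRF2 target, spanned 19.5 to 47.4 CPM on the VA-free diet and 3.41 to 34.2 CPM on the control diet, with a log2 fold change of 0.85 ± 0.41 (SE, edgeR's adjusted p = 0.145) that did not pass the test. Both ends of the control range were libraries of control mouse 2, at 3.41 CPM in 2A and 34.2 CPM in 2B, and the log2 fold change was 0.29 with adjusted p = 0.69 without 2A and 1.81 with adjusted p = 0.11 without 2B, the lowest and highest values of the 21 alternatives. Without VA-free mouse 3 it was 0.33 with adjusted p = 0.362. Without the length trend Hmox1 was called higher, at 1.33.

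Members known as NRF2 targets thus went in both directions, and so did members with an antioxidant response element core near their start. The RefSeq promoter windows (GRCm38.p6, 250 bases before to 50 after a start site) matched 39 of the 45 members. The core TGACNNNGC, searched on both strands, was found in 8 of these 39 (20.5%), against 14.0% of all 27025 genes of the table. The 8 windows are shown because they hold members that rose (Txnrd1, Srxn1), fell (Prdx1, Mgst1, Sod1) and were not called (Nfe2l2, Gclm, Ucp2). Without the length trend the lower calls of Prdx1 (-0.32) and Sod1 (0.00) were lost and Gclm was called higher, at 0.59. The calls of Txnrd1, Srxn1 and Mgst1 were kept. The core or its reverse complement is in capitals, each window is read 5' to 3' on the strand of the gene, and the N positions are open:
Nfe2l2: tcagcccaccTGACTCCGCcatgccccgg
Srxn1: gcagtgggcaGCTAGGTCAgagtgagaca
Gclm: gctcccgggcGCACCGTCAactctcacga
Prdx1: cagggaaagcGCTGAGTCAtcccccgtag
Mgst1: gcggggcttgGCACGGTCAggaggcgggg
Ucp2: ccctggctccGCCTCGTCAcgccacgccc
Txnrd1: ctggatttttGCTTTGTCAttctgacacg
Sod1: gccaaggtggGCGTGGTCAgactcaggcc
The windows lie, in GRCm38.p6 coordinates, for Nfe2l2 at chr2:75704885-75704913, Srxn1 at chr2:152105542-152105570, Gclm at chr3:122245413-122245441, Prdx1 at chr4:116685456-116685484, Mgst1 at chr6:138140461-138140489, Ucp2 at chr7:100493282-100493310, Txnrd1 at chr10:82859104-82859132 and Sod1 at chr16:90220696-90220724, all on the plus strand except that of Nfe2l2. The core of Txnrd1 starts 92 bases before a start site, and that of Srxn1 at base 29 of the transcript. The AP-1 motif TGACTCA, whose letters the core can overlap, was found in 4 of the 39 members (10.3%), against 5.95% of all genes, and of the 8 cores that of Prdx1 holds it. A match is a match of letters only, and no match says nothing about sites outside these windows.

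By compartment, the 9 members of the endoplasmic reticulum and other membranes had the lowest median among the compartments with at least 4 members, -1.52, with 7 called lower and 0 higher. The 21 cytosolic members had a median of -0.74, with 11 lower and 2 higher, and the 4 found in more than one compartment a median of -0.92, with 3 lower. The 7 mitochondrial members had a median of -0.20, with 3 lower (Sod2, Txn2 and Glrx5) and 0 higher. Both secreted enzymes, Gpx3 and Sod3, were above 0, at 0.17 and 0.54. Without the length trend the medians were -0.80 for the membrane members, -0.03 for the cytosol and 0.28 for mitochondria, where the direction turned. No test of the difference between compartments was made.

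The selenoenzymes among the members did not move together. Gpx1 and Gpx4 were called lower and Txnrd1 higher, while Gpx3 and Txnrd2 were not called. Without the length trend Gpx4 was at -0.06 and not called, and Gpx3 (0.59) and Txnrd2 (0.77) were called higher. The calls of Gpx1 and Txnrd1 were kept. Of 17 other genes of selenoprotein synthesis and function 9 were called lower and 2 higher, against 22.5% and 18.9% of all genes tested. With the length trend removed 5 were called lower and 3 higher, and the median of the list turned from -0.62 to 0.05. Selenop, the plasma selenium carrier, had a log2 fold change of -0.09 ± 0.12 (SE, edgeR's adjusted p = 0.577), and Selenof, a selenoprotein of the endoplasmic reticulum, one of -0.72 ± 0.18 (SE, edgeR's adjusted p = 0.016). Selenof was at -0.03 and not called without the length trend.

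Other genes of these pathways, listed with earlier results of these data known, fell more often than they rose. Of 111 symbols 109 matched and 98 were tested. Of these 16 were called higher and 43 lower, where 18.9% and 22.5% of all genes tested were, with a median of -0.48. Those shares of all genes also apply to the counts of each list below. Without the length trend 20 were called higher and 22 lower, against 21.2% and 13.9% of all genes. Their median was then 0.06, so the direction of the median turned. Among 23 other NRF2 partners and targets 7 were higher and 8 lower. Without the length trend 9 of them were higher and 4 lower, and the median of the list turned from -0.17 to 0.34. The iron store genes of this list fell, Ftl1 with a log2 fold change of -1.44 ± 0.15 (SE, edgeR's adjusted p = 0.000692) and Fth1 with one of -0.68 ± 0.18 (SE, edgeR's adjusted p = 0.0234), although Fth1 was at 0.05 without the length trend. Of 20 further transferases and genes of glutathione handling tested, 10 were lower and 2 higher. Without the length trend 3 were lower and 3 higher, and the median of this list moved from -0.65 to -0.21. Gstt1 of this list had a log2 fold change of -0.87 ± 0.15 (SE, edgeR's adjusted p = 0.00345), and Slc3a2, a subunit of the cystine importer, one of -0.26 ± 0.16 (SE, edgeR's adjusted p = 0.245). Gstt1 was at -0.17 and not called without the length trend.

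Among 9 other peroxide-removing enzymes tested, 4 were lower and 2 higher, and without the length trend 3 were lower and 2 higher. The higher ones included Pxdn, a peroxidase that cross-links collagen IV in the matrix, which was at 745.8, 598.3, 694.1 and 714.7 CPM on the VA-free diet and 213.4, 245.0, 53.1 and 341.0 CPM on the control diet. No libraries overlapped, control 2A was the lowest, and the log2 fold change was 1.67 ± 0.16 (SE, edgeR's adjusted p = 0.000481). Txndc5, a disulfide isomerase of the endoplasmic reticulum, was the other, at 0.63 ± 0.14 (SE, edgeR's adjusted p = 0.0121). Of 11 other oxidase genes tested 5 were lower and 1 higher, the same counts as without the length trend. Rac1, the GTPase that activates some NADPH oxidases, had a log2 fold change of -0.12 ± 0.13 (SE, edgeR's adjusted p = 0.507). Maob, a mitochondrial amine oxidase that makes hydrogen peroxide, had one of 0.22 ± 0.13 (SE, edgeR's adjusted p = 0.242). Of 18 genes of methionine sulfoxide repair and protection tested 7 were lower and 2 higher, and without the length trend 2 were lower and 2 higher. The metallothioneins Mt1, at -0.57 ± 0.25 (SE, edgeR's adjusted p = 0.111), and Mt2, at -0.17 ± 0.21 (SE, edgeR's adjusted p = 0.549), did not pass the test.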

How the data were processed

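RNA of sorted MuSCs was copied into full-length cDNA, tagmented and sequenced in 8 libraries of 5 mice. The authors used Kallisto 0.46.2 to assign reads to GRCm38 transcripts of Ensembl 96 and deposited estimated counts and TPM per transcript, without normalization between libraries. Between 0.647% and 0.756% of a library's counts named no gene and were left out. Estimated counts were summed per gene and over the libraries of a mouse and rounded. The 3 VA-free and 2 control mice were compared in R 4.3.3 with edgeR 4.0.16 (TMM, filterByExpr, quasi-likelihood test on 17997 genes, Benjamini-Hochberg adjusted p under 0.05). On 1 set of simulated counts with 200 changed genes among 17997 and no length trend, this comparison called 168 of them and 21 unchanged genes. Wrong calls exceeded the nominal level in that setting. In the data 41.4% of genes were called, so the simulation does not give the share of wrong calls there. The 21 alternatives were other normalizations and filters, DESeq2 1.42.0, length corrections, limma 3.58.1 on log2(TPM + 1) and log2(TPM + 0.1), a block for the replicate number, and the omission of single mice or libraries. Full values were given for up to 3 called members per family with the largest changes, the most abundant member of each family by TPM and all oxidase genes, and for the 2 most abundant genes of each other list. The members and lists were chosen with earlier results of these data known. Libraries A and B are parts of the RNA of 1 animal and counted as separate samples only in 1 DESeq2 alternative and in the search for libraries far from the others. Counting error is small at this depth, except for Cybb, Ncf1 and Nox4.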

Additional observations from a re-analysis of the deposited data

Results flagged for a closer look

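In 3 of 90 groups of 4 libraries 1 library lay far from the others by Dixon's test. Chance gives about 1 in 20 for independent samples, a rate that does not apply as such here, since the groups hold libraries A and B of the same mouse. Gpx3 was at 6405 CPM in VA-free 2A, where the next library was at 5170.2 CPM. Gpx8 was at 136 CPM in control 2A, where the next was at 69.2 CPM, and Glrx3 was at 297 CPM in that library, where the next was at 183 CPM. Both of the latter lie in control 2A, the library that stands apart.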

How the results depend on the processing

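Only 1 difference between animals gives the spread of the control diet. Across the 21 alternatives the calls of Gpx1, Txn1, Txnrd1, Glrx5, Gsta4, Gstm2, Mgst1, Mgst3, Nqo1, Cyba and Nox4 were kept. Removal of the length trend gave 8 members higher and 10 lower with a median of -0.10, and log2(TPM + 1) and log2(TPM + 0.1) gave 9 and 9 higher, with medians of -0.29 and -0.30. DESeq2 on the 8 libraries gave 5 higher. Leaving out a mouse or a library gave 1 to 3 higher, 22 to 25 lower and a median from -0.78 to -0.59. The numbers of the mice do not pair them (correlations of -0.02 and 0.01 for same-numbered mice), and with the replicate number as a block 1 member was higher, 23 were lower and the median was -0.72, where Sod2, Sod3, Srxn1 and Txn2 were not called and Cybb was, at -1.77 with adjusted p = 0.011. Alternatives for the other pathway genes were added after seeing the data: 22 were lower without the length trend, 30 higher and 27 lower on either TPM scale, and 10 higher with the block, and leaving out a mouse or library gave 7 to 18 higher and 34 to 43 lower. The lowest counts of higher genes, 1 member and 7 other genes, came without library control 2B, and without VA-free mouse 3 they were 1 and 10. The direction turned for these members: without the length trend Sod1 0.00, Sod2 0.11, Prdx3 0.28, Prdx6 0.50, Txn2 0.04, Gclm 0.59, Gss 0.34, Gsto1 0.24 and Ucp2 0.58; on log2(TPM + 1) Prdx3 0.24, Prdx6 0.28, Glrx2 -0.22, Gclc 0.28, Gclm 0.50, Gss 0.44, Gsr 0.14, Gsto1 0.05, Nfe2l2 0.16, Keap1 0.25 and Ucp2 0.10; on log2(TPM + 0.1) Prdx3 0.24, Prdx6 0.28, Glrx2 -0.22, Gclc 0.28, Gclm 0.51, Gss 0.45, Gsr 0.15, Gsto1 0.05, Nfe2l2 0.17, Keap1 0.25 and Ucp2 0.10; with the effective length offset Glrx2 -0.61, Gclm 0.11 and Gss 0.05; with DESeq2 on the 8 libraries Gss 0.01 and Ucp2 0.08; with the block Txnip -0.04. Ranges over the left-out mice and libraries, which include a turn, were Gss -0.19 to 0.19, Ucp2 -0.56 to 0.27, Txnip -0.01 to 0.57, Prdx6 -0.31 to 0.08, Gclm -0.26 to 0.13 and Gpx3 -0.02 to 0.38. The cause was not tested.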
